A study of Homo sapiens with 28 samples.

Results

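CLA18:2, a linoleic acid whose double bonds are conjugated, was added at 80 µM to HT-1080 cells that also received 10 nM RSL3, and these cultures were set against cultures given 10 nM RSL3 alone. The comparison rests on 8 of the 28 libraries of the series, 4 labelled RSL3+CLA18:2 and 4 labelled RSL3, and on every gene with enough counts, 14628 of 60286 listed. HT-1080 is an established human fibrosarcoma line, given as wild type, and every culture was treated overnight. Both groups carried RSL3 at the same dose and differed by the acid. 2 further comparisons place this response. The first used the 4 CLA18:2 libraries (80 µM without RSL3) and the 4 vehicle libraries (DMSO) to ask whether CLA18:2 acted differently without RSL3. The second used the 4 RSL3+LA libraries, in which 80 µM unconjugated linoleic acid (LA) was added to 10 nM RSL3. The design text gives the acids in µM, which is used here, whereas the sample labels write mM. The replicates are called independent in the design text, and the labels give no batch, passage or date.

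RSL3 inhibits GPX4, the selenoenzyme that reduces phospholipid hydroperoxides, and cells deprived of its activity can die by ferroptosis, an iron-dependent death driven by lipid peroxidation. In LA a methylene group separates the double bonds, and this position loses hydrogen readily to a radical, whereas in a conjugated diene radicals can add directly to the double bonds. Electrophiles made from oxidized fatty acids modify KEAP1 and release NRF2, the factor that drives antioxidant genes, while fatty acids themselves are ligands of PPAR receptors, and polyunsaturated ones lower the processing of SREBP factors. The series is about how such peroxidation routes contribute to ferroptosis, and cell death was not among the measurements analysed here.

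The 8 libraries held 16533930 to 22468321 counts. RSL3+CLA18:2 libraries were more variable, with a biological coefficient of variation of 14.2% over genes against 7.68% in RSL3 (n = 4 each). On the second principal component of the 8 libraries, which held 19.5% of the variance, RSL3+CLA18:2 replicates 3 and 4 lay at 41.7 and -36.4, while the other 6 lay between -7.49 and 2.99. Thinned to a common depth, the RSL3+CLA18:2 libraries had counts for 19004 to 21301 genes and the RSL3 libraries for 21983 to 22519. Mitochondrially encoded mRNAs took 0.263%, 0.313%, 1.68% and 0.308% of counts in RSL3+CLA18:2 replicates 1 to 4, and 1.47%, 1.498%, 1.47% and 0.548% in RSL3 replicates 1 to 4 (95% Wilson intervals, of counting error only, within 0.01 percentage points). Replicate 3 of RSL3+CLA18:2 and replicate 4 of RSL3 went against their groups on this measure. The part of these differences between libraries in the results was not tested, and counts without those libraries are given beside the results they move. Of 14 mesenchymal markers 13 passed the low-count filter, and of these 4 were higher and 2 lower with CLA18:2. FN1 and VIM, both abundant, were not called, while COL1A1 (log2 fold change -1.19) and SPARC (-0.45) were lower. CD44 (0.22), ZEB1 (0.25), MMP14 (0.47) and PDGFRB (0.51) were higher. No blood marker (of 12) and no hepatocyte or kidney marker (of 8) passed, and 4 and 5 of these had no count in any of the 8 libraries. Of 14 epithelial markers 5 passed and 3 of these were lower with CLA18:2, the keratin genes KRT8, KRT18 and KRT14. The summed level of the 14 was 595.5 to 673.8 CPM in RSL3+CLA18:2 and 815.1 to 894.0 CPM in RSL3. KRT8 had means of 486.3 CPM with CLA18:2 and 659.3 CPM in RSL3, and KRT18 of 142.4 and 183.3 CPM. CLDN4 and MUC1 also passed and were not called, and 4 of the 14 had no count in any of the 8 libraries (EPCAM, KRT5, GRHL2 and OVOL1). Of 7 endothelial markers 1 passed and was not called, and of 6 neural markers 4 passed and 1 was higher.

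**Figure D1:**
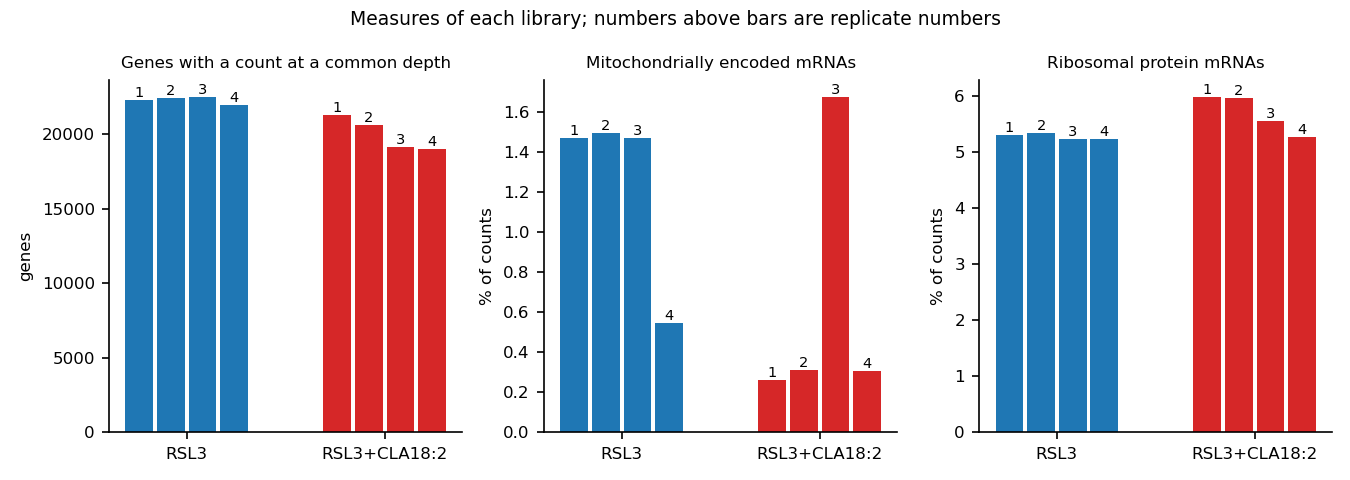
Genes with a count at a common depth (left), the share of counts in mitochondrially encoded mRNAs (middle) and in ribosomal protein mRNAs (right), in 4 libraries of RSL3 (blue) and 4 of RSL3+CLA18:2 (red), 1 bar per library. RSL3+CLA18:2 replicate 3 stood at 1.68% and RSL3 replicate 4 at 0.548% in the middle panel, away from the rest of their groups.

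Adding CLA18:2 to RSL3 changed 4421 of the 14628 tested genes (30.2%) at an adjusted p under 0.05 by edgeR's quasi-likelihood test, 2405 higher (16.4%) and 2016 lower (13.8%). Under scaling by library totals 2225 were higher and 2252 lower, so which direction held more calls depended on the scaling. Without the low-count filter the counts were 2260 and 2283, but p-values of that fit did not follow the spread between libraries, as shown for MT-CO1 below. Of the 4421, 260 rose and 222 fell at least 2-fold, and 41 and 29 at least 4-fold. The median log2 fold change over all tested genes was -0.0030 and the median size of a called change 0.39, so most called changes were modest. The share called rose with expression, from 6.26% of genes under 1 CPM (counts scaled to library size) to 51.5% of genes over 100 CPM. Leaving out the 2 RSL3+CLA18:2 libraries that stood apart gave 4495 calls, of which 3591 were among the 4421. Without these 2, the lists described first below kept close to their counts: 31 NRF2 targets, 28 ER response and 33 proteasome genes were higher, and 20 cholesterol and 24 actin genes were lower. Without RSL3+CLA18:2 replicate 3 and RSL3 replicate 4 the same counts were 32, 28, 32, 20 and 23. Counts of 0 to 2 members in 1 direction of a list, given below, moved by 1 or 2 in several lists when single libraries were left out. In such bulk samples, fewer cells with a transcript and less of it in each cell cannot be told apart. Values below are CPM in each library, in the order of replicates 1 to 4, and log2 fold changes of RSL3+CLA18:2 over RSL3 ± SE (n = 4 libraries per group) with p adjusted over all tested genes.

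Among the 12 largest increases were genes of glycan branching, lipid aldehyde reduction, early transcription and chemokines. GCNT3, a mucin-type glycosyltransferase (chromosome 15, 59594875 to 59640239, plus strand), stood at 10.8, 12.9, 14.6 and 13.1 CPM with CLA18:2 and at 0.849, 0.789, 0.419 and 0.542 CPM in RSL3, a log2 fold change of 4.30 ± 0.21. AKR1B10, a reductase of lipid aldehydes (chromosome 7, 134527592 to 134541408, plus strand), stood at 10.6, 6.68, 11.3 and 10.9 against 0.788, 0.835, 0.680 and 0.434 CPM (3.84 ± 0.25). Each had as few as 8 counts in an RSL3 library, and no library of one group reached the other. CPT1A, which commits fatty acids to mitochondrial oxidation (chromosome 11, 68754620 to 68844410, minus strand), stood at 54.5, 57.2, 56.9 and 56.9 against 7.70, 10.1, 9.27 and 8.84 CPM (2.65 ± 0.09). The other 9 were FOS, CXCL3, NMRAL2P, CXCL8, NAP1L2, EGR1, FOSB, DGKG and PIR. DGKG, a diacylglycerol kinase, rose by 2.58 ± 0.09 and PIR, an iron-binding nuclear protein, by 2.58 ± 0.10.

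Of the 12 largest decreases, TGFB2, a transforming growth factor (chromosome 1, 218346235 to 218444619, plus strand), stood at 10.3, 10.99, 6.69 and 11.6 CPM against 50.7, 56.9, 61.6 and 65.8 CPM in RSL3, a log2 fold change of -2.57 ± 0.14. THBS1, the matrix glycoprotein thrombospondin 1 (chromosome 15, 39581079 to 39599466, plus strand), stood at 1773, 1746, 1724 and 1885 against 4884, 5070.0, 5341 and 5550.0 CPM (-1.54 ± 0.04, adjusted p = 3.1e-12 by edgeR). SCD, the desaturase that makes oleic and palmitoleic acid (chromosome 10, 100347124 to 100364834, plus strand), stood at 147, 147, 144 and 154 against 379.6, 389, 405 and 436 CPM (-1.44 ± 0.05). In all 3 the highest RSL3+CLA18:2 library lay far below the lowest RSL3 library. The other 9 were NUAK2, KRT80, the unnamed gene ENSG00000287064, CCDC190, EDN1, S1PR1, PLK2, GJA1 and NAT8L. Among them NUAK2, a stress-activated kinase, changed by -2.42 ± 0.19, EDN1, the endothelin precursor, by -1.53 ± 0.11 and GJA1, the gap junction protein connexin 43, by -1.39 ± 0.09.

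**Figure D2:**
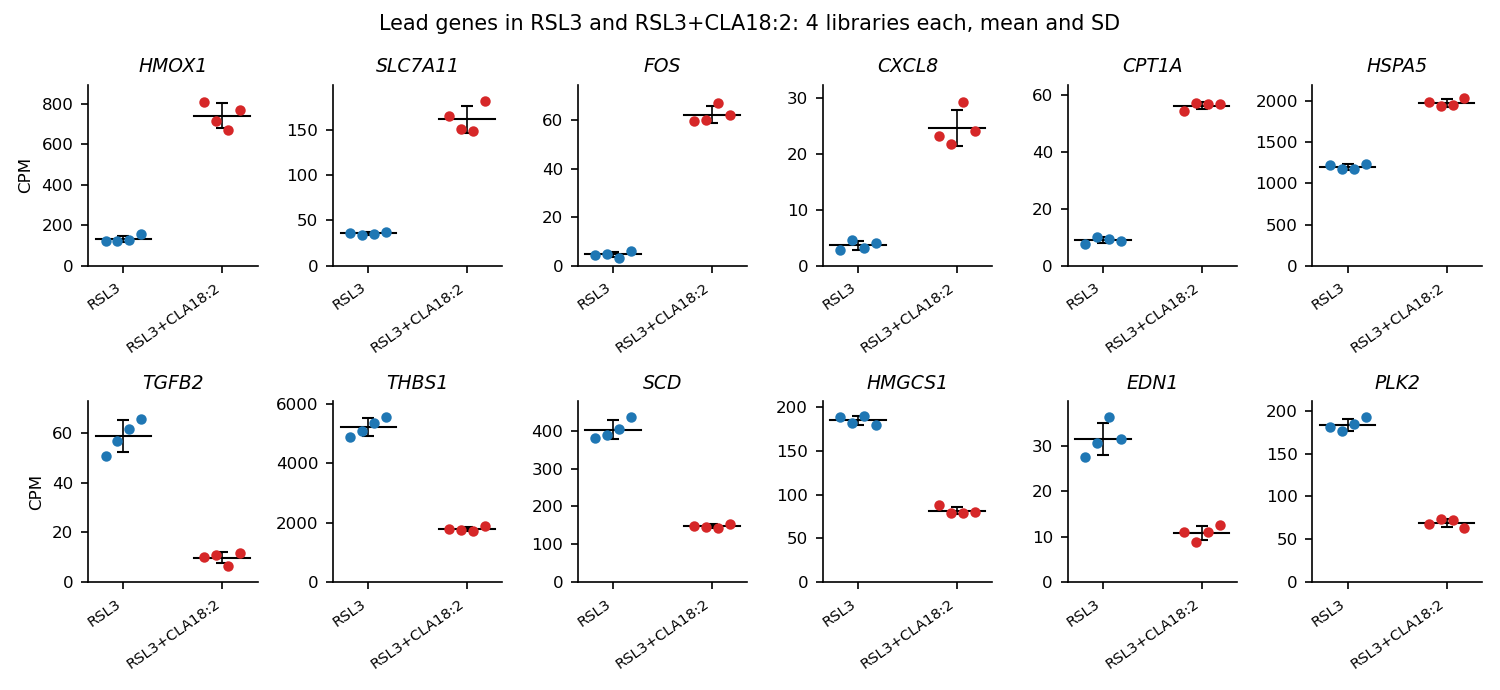
CPM of 12 genes in the 4 libraries of RSL3 (blue) and of RSL3+CLA18:2 (red), each axis starting at 0, with the mean and SD of each group in black. The groups did not overlap in any of the 12 genes: HMOX1 lay at 672 to 811 CPM against 124 to 155.7, and TGFB2 at 6.69 to 11.6 against 50.7 to 65.8.

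Targets of NRF2 rose almost as a block. Of 33 tested, 32 were higher and 0 lower, with a median log2 fold change of 0.99, whereas 16.4% of all tested genes were higher. It was 31 or 32 under each of the 18 alternatives. HMOX1, which degrades heme and releases its iron (chromosome 22, 35380361 to 35394214, plus strand), stood at 811, 714, 672 and 771 CPM with CLA18:2 and at 124, 124, 126 and 156 CPM in RSL3 (2.49 ± 0.08, adjusted p = 1.4e-11 by edgeR). SLC7A11, the cystine importer that feeds glutathione synthesis (chromosome 4, 138164097 to 138242349, minus strand), stood at 166, 151, 148 and 181 against 36.4, 33.7, 35.02 and 37.3 CPM (2.19 ± 0.07). OSGIN1, an oxidative stress-induced growth inhibitor, stood at 62.5, 63.8, 57.6 and 71.7 against 11.6, 11.6, 11.8 and 12.4 CPM (2.44 ± 0.08). In each the groups were separated by a wide gap. All 11 tested antioxidant members rose (median 1.29), as did all 5 that supply NADPH (median 0.54) and all 6 of iron, heme and adaptor function (median 1.10). Of 11 exporters and detoxifying enzymes 10 rose. SQSTM1, the autophagy receptor that also binds KEAP1, rose by 1.89 ± 0.04, to 1278, 1277, 1313 and 1305 from 359, 343, 342 and 359.5 CPM. SRXN1, which repairs oxidized peroxiredoxins, stood at 37.9, 47.8, 35.5 and 41.1 against 18.0, 16.7, 11.9 and 9.59 CPM and rose by 1.53 ± 0.16. The RSL3 libraries of SRXN1 were uneven, with replicates 3 and 4 below replicates 1 and 2. AKR1C1 rose by 2.09 ± 0.28, but close paralogs share reads with it, so its identity is uncertain.

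Of 26 glutathione genes tested, 16 were higher and 0 lower (median 0.35). In synthesis and recycling 7 of 8 rose, with a median of 0.99. Of the synthesis genes, GCLM, the modifier subunit of glutamate-cysteine ligase, stood at 279, 291, 304 and 288 against 90.4, 89.8, 105 and 105 CPM (1.58 ± 0.06), and GCLC, the catalytic subunit, at 52.3, 46.7, 44.5 and 52.8 against 31.3, 27.6, 28.8 and 33.8 CPM (0.70 ± 0.08). GSR, which regenerates reduced glutathione, rose by 1.29 ± 0.05 and the glutaredoxin gene GLRX by 1.66 ± 0.08. Transferases rose in 6 of 10, peroxidases in 2 of 4, and breakdown enzymes in 1 of 4; the difference between roles was not tested. CHAC1, which degrades glutathione, stood at 5.24, 6.25, 6.55 and 4.86 against 5.40, 5.43, 5.39 and 5.75 CPM, and its 95% interval ran from -0.26 to 0.39. GPX4, the target of RSL3 itself, stood at 91.3, 96.8, 72.7 and 74.5 CPM against 86.1, 82.6, 76.5 and 77.5 CPM, and the groups overlapped. Its log2 fold change was 0.06 ± 0.09, with a 95% interval of -0.12 to 0.24 and an adjusted p of 0.66 by edgeR. Replicates 1 and 2 of RSL3+CLA18:2 lay above all RSL3 libraries and replicates 3 and 4 below them, and without replicates 3 and 4 the value was 0.23 (adjusted p = 0.016 by edgeR).

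The thioredoxin and peroxiredoxin system had 13 members higher and 3 lower of 22 tested (median 0.29), and selenoproteins 10 higher and 2 lower of 22 (median 0.17). TXNRD1, the cytosolic thioredoxin reductase, stood at 835, 804, 869 and 905 against 469, 471, 471 and 508 CPM (0.84 ± 0.05). TXNRD2, the mitochondrial reductase, changed by -0.71 ± 0.09 and TXNIP, the inhibitor of thioredoxin, by -0.80 ± 0.10. The cytosolic and mitochondrial reductase genes moved in opposite directions. The methionine sulfoxide reductase MSRB1 rose by 1.12 ± 0.06 and MSRB3 changed by -0.34 ± 0.05. SELENOK, a selenoprotein of the endoplasmic reticulum (ER), rose by 1.14 ± 0.06. Catalase (CAT, 0.92 ± 0.08) and superoxide dismutase 1 (SOD1, 0.69 ± 0.05) also rose. Of 29 enzymes that remove aldehydes and other electrophiles 12 were higher and 4 lower (median 0.13). Reductases rose in 10 of 16, with none lower, while aldehyde dehydrogenases had 2 of 13 higher and 4 lower. ALDH2, the mitochondrial enzyme that oxidizes lipid aldehydes, stood at 33.3, 34.1, 34.7 and 30.6 against 10.6, 10.1, 9.21 and 8.13 CPM (1.80 ± 0.10), and ALDH1B1, its close mitochondrial relative, at 43.7, 43.1, 46.2 and 38.2 against 86.4, 82.9, 83.9 and 78.9 CPM (-0.95 ± 0.07).

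Promoters of 2 of these rising groups were searched for the antioxidant response element, spelled TGACNNNGC, on both strands of RefSeq windows of 300 bases (build GRCh38.p14) that end 50 bases after a start site. Of 28 windows of called NRF2 targets 7 held it (25.0%), and of 33 windows of called proteasome genes 8 (24.2%), against 13.3% of all 35114 windows. The windows of GCLM and of the proteasome subunit PSMA4 are shown because each holds a single copy, in capitals, at opposite orientations. A match is a description of letters and not a measured site.
GCLM, chr1:93909381-93909680, minus strand: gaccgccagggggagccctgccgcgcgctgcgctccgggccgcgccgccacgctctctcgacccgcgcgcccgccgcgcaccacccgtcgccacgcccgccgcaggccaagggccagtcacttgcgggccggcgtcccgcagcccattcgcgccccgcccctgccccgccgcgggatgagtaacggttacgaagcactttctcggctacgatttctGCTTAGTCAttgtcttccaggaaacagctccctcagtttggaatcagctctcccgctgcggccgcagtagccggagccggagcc
PSMA4, chr15:78540536-78540835, plus strand: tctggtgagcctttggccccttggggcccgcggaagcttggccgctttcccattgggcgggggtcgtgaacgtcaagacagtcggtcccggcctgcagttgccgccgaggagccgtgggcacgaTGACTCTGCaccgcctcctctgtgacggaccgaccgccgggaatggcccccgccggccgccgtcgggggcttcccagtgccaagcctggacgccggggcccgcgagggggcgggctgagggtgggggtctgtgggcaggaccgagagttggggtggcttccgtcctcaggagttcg

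Regulators of ferroptosis moved in both directions. Of 22 suppressors 9 were higher and 4 lower (median 0.115), and of 26 drivers 8 were higher and 6 lower (median 0.07). Several of the higher members of either list, such as SLC7A11 and HMOX1, are also NRF2 targets and are counted in each list. AIFM2, which encodes the ubiquinone reductase FSP1, stood at 86.5, 63.9, 65.7 and 73.8 against 27.1, 29.5, 22.1 and 27.2 CPM (1.46 ± 0.10). The suppressors that fell were SCD, the sterol reductase DHCR7 (-0.84 ± 0.05), DHODH, which reduces ubiquinone in mitochondria (-0.46 ± 0.12), and the vitamin K reductase VKORC1L1 (-0.16 ± 0.05). The VKORC1L1 call was lost without any 1 of RSL3+CLA18:2 replicates 2 and 3 and RSL3 replicates 1, 2 and 3, with adjusted p from 0.0565 to 0.0954 by edgeR, and the DHODH call without RSL3+CLA18:2 replicates 3 and 4 together (adjusted p = 0.064). ACSL4, which loads polyunsaturated acids into phospholipids, stood at 188 to 224 CPM against 218 to 248 CPM in RSL3, and although the groups overlapped it fell (-0.21 ± 0.06, adjusted p = 0.010 by edgeR). ACSL3, the paralog that activates oleate, was not past the test (-0.10 ± 0.04). CYB5R1, an oxidoreductase on the driver list, rose by 1.32 ± 0.09. PTGS2, often used as a marker of ferroptosis, stood at 12.03, 11.5, 12.7 and 10.8 against 7.88, 7.52, 10.5 and 8.13 CPM (0.47 ± 0.13), and its adjusted p by edgeR was 0.053 without RSL3+CLA18:2 replicate 3 and RSL3 replicate 4.

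Iron genes were higher in 14 of 29 tested and lower in 2 (median 0.17), and the higher count was 9 without RSL3 replicate 1 or without RSL3 replicate 2. The ferritin light chain gene FTL stood at 1594, 1598, 1569 and 1593 against 699, 697, 724 and 824 CPM (1.11 ± 0.05), and the heavy chain gene FTH1 at 454, 462, 412 and 441 against 241, 221, 220.5 and 228 CPM (0.96 ± 0.05). Both storage subunit genes rose with no overlap between groups. ALAS1, the first enzyme of heme synthesis, rose by 0.59 ± 0.06, while the mitochondrial iron importer SLC25A37 changed by -0.40 ± 0.09 with overlapping groups. Among 3 genes of iron uptake, release and export that were not past the test, the transferrin receptor TFRC gave 0.03 ± 0.05, the ferritinophagy receptor NCOA4 gave -0.03 ± 0.05, and the exporter SLC40A1, at about 1 CPM, gave 0.17 ± 0.38. Of 5 tested metallothionein and zinc genes 1 was higher and 0 lower (median -0.03, over few genes). It was MT2A, a zinc-binding thiol protein, at 0.43 ± 0.05.

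Genes of the ER unfolded protein response were higher in 28 of 33 tested and lower in 0, with a median of 0.42. Chaperones and folding enzymes rose in 17 of 18 (median 0.44), and degradation and signalling genes in 11 of 15 (median 0.36). HSPA5, the luminal chaperone BiP (chromosome 9, 125234853 to 125241330, minus strand), stood at 1984, 1938, 1945 and 2032 CPM with CLA18:2 and 1228, 1173, 1171 and 1231 CPM in RSL3 (0.72 ± 0.04). DNAJB9, a cochaperone of BiP, stood at 39.0, 42.8, 42.1 and 37.5 against 19.8, 17.6, 22.5 and 19.9 CPM (1.02 ± 0.09), HERPUD1, of ER-associated degradation, at 0.66 ± 0.05 and SEC24D, a coat subunit of vesicles leaving the ER, at 0.79 ± 0.05. In each of these 4 genes the groups did not overlap. DESeq2 called 28 and limma voom 27 of the 33. Windows of 300 bases, as above, were searched for the ER stress response element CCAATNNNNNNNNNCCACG on both strands. It was found in 10 of 31 windows of called members (32.3%), belonging to 8 of 25 genes with a window, against 0.0769% of all 35114 windows. Windows of 1 gene can overlap and share a copy, as in CANX. The windows of HSPA5 and of the chaperone gene HSP90B1 are shown because they hold 1 and 2 copies, in capitals.
HSPA5, chr9:125241294-125241593, minus strand: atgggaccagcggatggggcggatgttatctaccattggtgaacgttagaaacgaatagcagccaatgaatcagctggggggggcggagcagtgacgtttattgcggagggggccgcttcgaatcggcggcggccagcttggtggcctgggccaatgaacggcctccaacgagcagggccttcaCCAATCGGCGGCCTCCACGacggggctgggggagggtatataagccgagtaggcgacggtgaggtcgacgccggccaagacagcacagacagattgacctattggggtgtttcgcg
HSP90B1, chr12:103930160-103930459, plus strand: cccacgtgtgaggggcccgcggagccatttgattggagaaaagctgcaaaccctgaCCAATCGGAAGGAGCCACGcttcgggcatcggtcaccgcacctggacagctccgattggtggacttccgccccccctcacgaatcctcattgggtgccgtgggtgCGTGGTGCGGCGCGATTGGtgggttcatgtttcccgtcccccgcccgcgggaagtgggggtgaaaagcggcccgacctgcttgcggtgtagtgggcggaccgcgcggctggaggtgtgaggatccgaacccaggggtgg

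The integrated stress response, in which phosphorylated eIF2alpha favours translation of ATF4, was higher in 19 of 35 tested genes and lower in 2 (median 0.24). Regulators rose in 10 of 16, and genes of amino acid synthesis and transport in 9 of 19 with 2 lower. CEBPB, a bZIP factor, rose by 1.27 ± 0.07. PPP1R15A, a phosphatase subunit that ends the eIF2alpha signal, rose by 0.96 ± 0.05, at 230.5, 229.8, 229.9 and 220.3 against 127, 114, 109.9 and 117 CPM. ATF4 itself rose by 0.30 ± 0.05 and TRIB3, its target and inhibitor, by 0.36 ± 0.06. DDIT3, the death-linked factor CHOP, stood at 8.0, 8.14, 9.07 and 5.54 against 5.28, 4.96, 5.18 and 4.99 CPM (0.59 ± 0.16), with replicate 4 of RSL3+CLA18:2 just above the RSL3 libraries. Its call was lost when RSL3+CLA18:2 replicate 3 and RSL3 replicate 4 were left out (adjusted p = 0.065 by edgeR). ASNS, asparagine synthetase, was near 1 CPM and gave 0.50 ± 0.49. GDF15, a stress cytokine, rose by 0.83 ± 0.07. Of 19 aminoacyl-tRNA synthetases 7 were higher and 0 lower (median 0.08), led by GARS1 (0.36 ± 0.05), and that count was 2 without RSL3 replicate 2, and 3 without RSL3 replicate 1 or RSL3+CLA18:2 replicate 1. The composite C/EBP-ATF letters TGATGNAA, searched in the same way, were in 3 of 27 windows of called stress response genes (11.1%) and in 3.62% of all windows.

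Cytosolic heat shock genes were higher in 10 of 22 and lower in 2 (median 0.11). HSPB8, a small chaperone that works with BAG3, stood at 86.5, 83.5, 98.7 and 91.7 against 25.4, 23.2, 26.8 and 26.3 CPM (1.83 ± 0.07), and BAG3 itself rose by 0.40 ± 0.05. HSP90AA1, the inducible HSP90, rose by 0.33 ± 0.04. HSPA6, a strictly inducible HSP70 with close paralogs, went the other way, at 4.26, 3.56, 4.49 and 3.74 against 6.25, 6.45, 5.34 and 7.05 CPM (-0.64 ± 0.16), and DNAJB1 changed by -0.16 ± 0.06, a call lost without any 1 of RSL3+CLA18:2 replicates 2, 3 and 4 and RSL3 replicates 1, 2 and 4. HSPA1A did not pass the low-count filter.

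Proteasome genes rose together. Of 38 tested, 32 were higher and 1 lower, with a median of 0.63. PSMC6, an ATPase of the regulatory particle, stood at 206, 213, 218 and 217 against 106, 109.6, 110.3 and 108 CPM (0.98 ± 0.04), and PSMB2, a subunit of the core, at 449.7, 458, 448 and 464 against 232, 239.9, 232 and 250.2 CPM (0.94 ± 0.04). PSMD14, the deubiquitinase of the lid, rose by 0.82 ± 0.04. In each of these the 4 libraries of a group lay within a narrow band and the bands were well apart. PSME3, an alternative activator that is not part of the standard particle, was the member that fell (-0.16 ± 0.05), a call lost without RSL3+CLA18:2 replicate 3 or RSL3 replicate 2. Lysosomal genes were higher in 21 of 43 and lower in 1 (median 0.20). The protease gene CTSD stood at 152, 163, 150.4 and 147 against 65.0, 62.8, 71.8 and 69.2 CPM (1.19 ± 0.05), the galactosidase gene GLA at 117, 124, 131 and 129.9 against 47.1, 43.1, 47.4 and 44.4 CPM (1.47 ± 0.06), and ATP6V1A, of the proton pump, rose by 0.72 ± 0.06. TFEB, which activates lysosomal genes, was the member that fell (-0.74 ± 0.18), with replicates 3 and 4 of RSL3+CLA18:2 lowest. Autophagy genes were higher in 20 of 34 and lower in 0 (median 0.24). GABARAPL1, of the ATG8 family, stood at 109, 110.0, 112 and 114 against 38.6, 39.2, 38.7 and 39.2 CPM (1.52 ± 0.05).

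**Figure D3:**
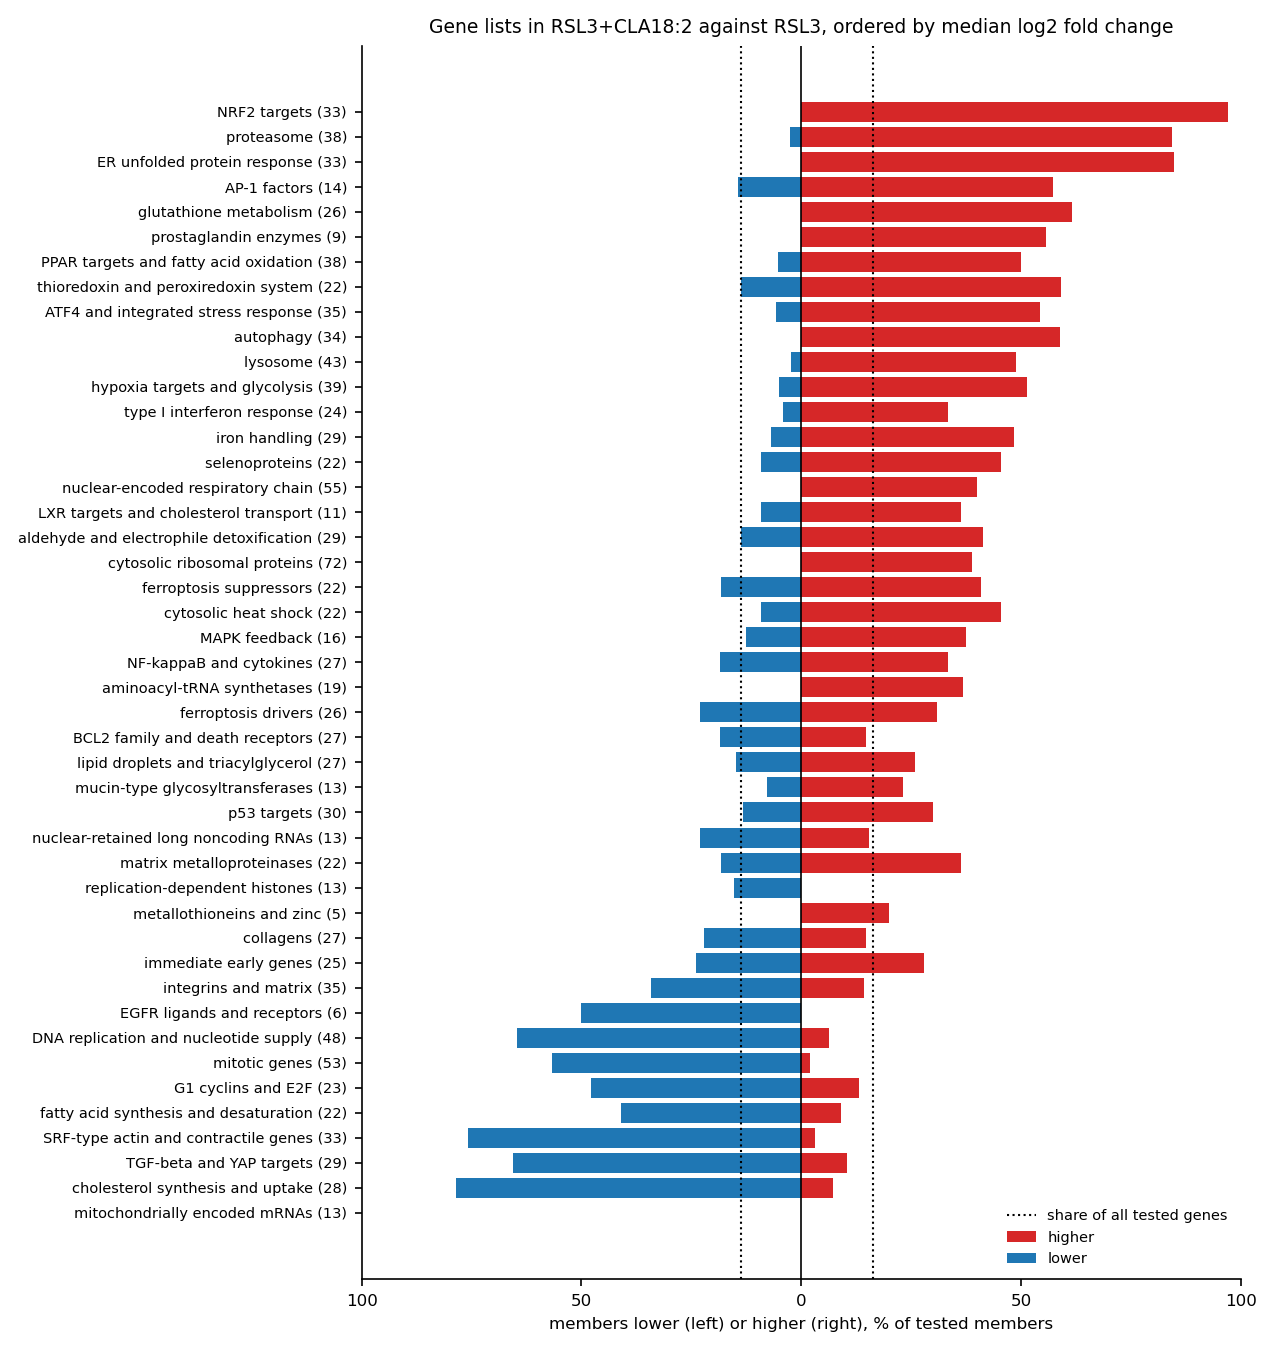
Percent of the tested members of each list that were higher (red, right) or lower (blue, left) in RSL3+CLA18:2 than in RSL3 at an adjusted p under 0.05, with the number tested in brackets and lists ordered by median log2 fold change. Dotted lines mark the same shares over all tested genes, 16.4% higher and 13.8% lower. NRF2 targets, the proteasome and the ER response stand at the top, and cholesterol, TGF-beta and YAP, and actin genes near the bottom.

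Genes of fatty acid oxidation were higher in 19 of 38 tested PPAR targets and oxidation genes and lower in 2 (median 0.30). In the carnitine shuttle 2 of 4 rose, CPT1A and the carnitine carrier gene SLC25A20, at 26.8, 26.0, 28.7 and 28.5 against 9.83, 8.91, 10.7 and 10.8 CPM (1.46 ± 0.09). Oxidation enzymes rose in 14 of 23 and fell in none. The thiolase gene ACAA2 stood at 73.1, 65.5, 67.6 and 63.6 against 29.8, 29.6, 31.0 and 28.8 CPM (1.18 ± 0.06). Among 11 receptors and their other targets 3 rose and 2 fell, the receptor gene PPARD (-0.40 ± 0.06) and the coactivator gene PPARGC1B (-0.57 ± 0.13). ANGPTL4, a secreted lipase inhibitor and PPAR target, stood at 2.82, 3.93, 1.60 and 3.38 against 0.425, 0.139, 0.157 and 0 CPM. Its fitted log2 fold change of 4.03 ± 0.55 is rough, since RSL3 libraries held few or no counts. PLIN2 and PDK4 did not pass the low-count filter, and PDK4 had none in any of the 8 libraries.

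Genes of cholesterol synthesis and uptake moved the other way. Of 28 tested, 22 were lower and 2 higher, with a median of -0.61, whereas 13.8% of all tested genes were lower. Among the 20 synthesis enzymes 18 fell and 0 rose (median -0.795). HMGCS1, the synthase ahead of HMG-CoA reductase (chromosome 5, 43289395 to 43313512, minus strand), stood at 88.1, 79.2, 79.5 and 80.2 against 189, 182, 189.6 and 180.3 CPM (-1.17 ± 0.05), and MSMO1, a sterol demethylase, changed by -1.13 ± 0.06. INSIG1, which retains SREBP in the ER and is an SREBP target, stood at 59.6, 59.2, 59.3 and 58.6 against 126, 134, 131 and 129 CPM (-1.13 ± 0.05). In these 3 genes each RSL3+CLA18:2 library was below every RSL3 library. The 2 members that rose were RNF145, a ligase acting on HMG-CoA reductase (1.16 ± 0.05), and INSIG2 (0.43 ± 0.08). A sterol regulatory element spelled TCACNCCAC was in 1 of 21 windows of called members (4.76%), that of SREBF2, and in 1.13% of all windows.

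Fatty acid synthesis and desaturation genes were lower in 9 of 22 and higher in 2 (median -0.20). After SCD, the lower genes with the smallest p were FADS2, the delta-6 desaturase (-0.47 ± 0.05), and ACLY, which makes cytosolic acetyl-CoA (-0.43 ± 0.04). ME1, a malic enzyme that supplies NADPH and is also an NRF2 target, rose by 0.99 ± 0.06, and the elongase gene ELOVL6 rose by 0.47 ± 0.07. Lipid droplet and triacylglycerol genes were higher in 7 of 27 and lower in 4 (median 0.03), 40.7% called either way against 30.2% of all tested genes. GPAT3, an acyltransferase of triacylglycerol synthesis, rose by 0.96 ± 0.07 and PNPLA3, a droplet lipase, changed by -1.15 ± 0.24. Of 11 LXR and cholesterol transport genes 4 were higher and 1 lower (median 0.15), and the higher count was 1 or 2 without RSL3+CLA18:2 replicate 3 or any 1 RSL3 library. NR1H2, which encodes LXR-beta, rose by 0.32 ± 0.07 and SREBF1 changed by -0.30 ± 0.07. Of 9 prostaglandin enzymes 5 were higher and 0 lower (median 0.32), or 3 without the libraries that stood apart, with PTGES3, a prostaglandin E synthase and HSP90 cochaperone, at 0.28 ± 0.04. PLA2G4A, the cytosolic phospholipase A2, stood at 2.25, 2.59, 5.04 and 3.02 against 1.27, 1.90, 1.10 and 1.41 CPM (1.18 ± 0.30), with replicate 3 of RSL3+CLA18:2 highest, and its adjusted p by edgeR was 0.073 without replicates 3 and 4.

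AP-1 factors were higher in 8 of 14 and lower in 2 (median 0.37). FOS (chromosome 14, 75278774 to 75282230, plus strand) stood at 59.7, 60.2, 67.4 and 62.4 CPM with CLA18:2 and at 4.43, 4.83, 3.25 and 6.07 CPM in RSL3 (3.75 ± 0.13, adjusted p = 2.5e-11 by edgeR), and FOSB at 39.1, 34.6, 36.6 and 44.1 against 7.22, 6.82, 5.97 and 5.20 CPM (2.62 ± 0.12). ATF3, a stress-induced partner of AP-1, stood at 58.1, 50.4, 63.6 and 60.8 against 27.5, 28.9, 31.4 and 30.0 CPM (0.99 ± 0.08). MAFG, a small MAF protein that pairs with NRF2, rose by 0.96 ± 0.05, whereas FOSL2 (-0.43 ± 0.04) and BATF3 (-0.64 ± 0.17) fell. Immediate early genes as a whole were split, with 7 of 25 higher and 6 lower (median -0.08). EGR1, a zinc finger factor (chromosome 5, 138465490 to 138469315, plus strand), stood at 29.5, 27.6, 28.1 and 25.1 against 3.82, 4.32, 4.45 and 5.26 CPM (2.63 ± 0.11). SRF, the factor of many early and actin genes, stood at 95.8, 92.5, 96.5 and 92.8 against 152, 151, 134 and 142 CPM (-0.61 ± 0.05), and the secreted matrix protein gene CCN1 at 763, 841, 832 and 788 against 1143, 1134, 1130.0 and 1099 CPM (-0.48 ± 0.04). MAPK feedback genes were higher in 6 of 16 and lower in 2 (median 0.09), with DUSP5, an ERK phosphatase, at 0.73 ± 0.07 and DUSP7, another, at -0.65 ± 0.06. Of 6 tested EGFR ligands and receptors 3 were lower and 0 higher (median -0.14), with HBEGF, a ligand, at -0.47 ± 0.04.

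Cytokine and NF-kappaB genes were higher in 9 of 27 and lower in 5 (median 0.09). Cytokines rose in 6 of 12 with 1 lower, while subunits and inhibitors had 3 of 15 higher and 4 lower. CXCL8, interleukin 8 (chromosome 4, 73740506 to 73743716, plus strand), stood at 23.3, 21.8, 29.3 and 24.2 against 2.85, 4.64, 3.09 and 4.07 CPM (2.74 ± 0.15) and CXCL3, another neutrophil chemokine, at 15.0, 14.9, 18.8 and 14.4 against 1.40, 1.49, 2.09 and 1.41 CPM (3.30 ± 0.17). NFKBIA, the NF-kappaB inhibitor, rose by 0.95 ± 0.09, whereas TNFAIP3, a deubiquitinase that also limits NF-kappaB, changed by -0.83 ± 0.13. The lower count was 2 or 3 without RSL3+CLA18:2 replicate 1 or 3 or without any 1 RSL3 library. Type I interferon genes were higher in 8 of 24 and lower in 1 (median 0.17), 37.5% called against 30.2% of all tested genes. IFI44, an interferon-induced protein, stood at 10.2, 9.65, 12.3 and 13.5 against 2.24, 3.94, 3.30 and 2.49 CPM (1.92 ± 0.19), and MX1, an antiviral GTPase, rose by 0.84 ± 0.19. Mucin-type glycosyltransferases other than GCNT3 included GCNT2, which stood at 102, 108, 109.7 and 112 against 25.5, 24.4, 24.1 and 27.8 CPM (2.09 ± 0.06). In that list 3 of 13 were higher and 1 lower (median 0.01, or -0.0139 under scaling by library totals), a share of 30.8% called, near the 30.2% of all tested genes.

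Targets of TGF-beta and YAP were lower in 19 of 29 and higher in 3 (median -0.32). After TGFB2 and THBS1, the lower members with the smallest p were F3, tissue factor (-1.08 ± 0.06), and SMAD3, which carries the TGF-beta signal to the nucleus and stood at 50.6, 52.1, 53.4 and 53.4 against 90.6, 91.5, 86.6 and 93.4 CPM (-0.78 ± 0.05). TGFB1 itself rose by 0.30 ± 0.05. Actin and contractile genes of the SRF type were lower in 25 of 33 and higher in 1 (median -0.30). CNN2, a calponin that binds actin, stood at 222, 219.8, 211 and 216 against 422, 433, 422 and 427 CPM (-0.97 ± 0.04). CALD1, caldesmon, changed by -0.72 ± 0.04, and VCL, the adhesion linker vinculin, by -0.67 ± 0.05. The exception was TPM3, a tropomyosin (0.16 ± 0.04). CNN1, also read as a smooth muscle marker, fell by 1.14, while MYH11 and DES were at or near 0. The SRF-binding CArG box was in 9 of 37 windows of lower actin genes (24.3%), 7 of 21 genes, and in 1.29% of all windows. It was in 1 of 6 windows of called higher immediate early genes (16.7%), that of EGR1, and in 0 of 9 windows of higher AP-1 genes. The windows of EGR1, which rose, and of CNN2 and SRF, which fell, are shown because all 3 hold the box, in capitals, while their mRNAs moved in opposite directions.
EGR1, chr5:138465229-138465528, plus strand: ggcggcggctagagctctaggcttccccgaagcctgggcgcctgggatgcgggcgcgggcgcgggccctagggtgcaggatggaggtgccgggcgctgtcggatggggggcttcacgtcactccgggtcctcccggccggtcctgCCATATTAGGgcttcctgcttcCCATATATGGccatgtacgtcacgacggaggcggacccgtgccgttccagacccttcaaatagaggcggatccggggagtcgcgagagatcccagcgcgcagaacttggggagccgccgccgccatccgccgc
CNN2, chr19:1026358-1026657, plus strand: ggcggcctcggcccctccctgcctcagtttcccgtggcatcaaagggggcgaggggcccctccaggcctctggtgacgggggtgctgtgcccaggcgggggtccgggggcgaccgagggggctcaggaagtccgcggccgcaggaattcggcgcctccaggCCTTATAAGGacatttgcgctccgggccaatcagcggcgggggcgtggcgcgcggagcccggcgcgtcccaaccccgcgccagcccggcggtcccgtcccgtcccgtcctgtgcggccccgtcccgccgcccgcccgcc
SRF, chr6:43171019-43171318, plus strand: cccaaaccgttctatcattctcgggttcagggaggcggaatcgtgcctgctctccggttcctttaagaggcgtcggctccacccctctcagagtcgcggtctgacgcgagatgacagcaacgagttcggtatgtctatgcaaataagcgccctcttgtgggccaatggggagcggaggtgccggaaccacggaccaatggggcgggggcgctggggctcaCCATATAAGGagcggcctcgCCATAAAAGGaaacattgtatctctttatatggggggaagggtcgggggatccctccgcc

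Collagens and their modifying enzymes were lower in 6 of 27 and higher in 4 (median -0.03), 37.0% called, near the 30.2% of all tested genes. COL1A1, the type I collagen chain, stood at 132, 134, 130.4 and 115 against 304, 312, 272 and 279.7 CPM (-1.19 ± 0.06), and COL5A1 changed by -0.50 ± 0.05, whereas the collagen prolyl hydroxylase gene P4HA1 rose by 0.37 ± 0.05. Integrin and matrix genes were lower in 12 of 35 and higher in 5 (median -0.09), with 7 lower without RSL3+CLA18:2 replicate 3 or without RSL3 replicate 4, and 3 higher without RSL3+CLA18:2 replicate 1 or RSL3 replicate 2. ITGA2, the collagen-binding integrin subunit, stood at 643, 638, 631 and 736 against 272, 284, 299 and 358 CPM (1.13 ± 0.08), against the direction of most called members. SPARC, a matricellular protein, changed by -0.45 ± 0.04. Proteases and inhibitors were higher in 8 of 22 and lower in 4 (median -0.02). The urokinase receptor gene PLAUR (0.73 ± 0.05), the urokinase gene PLAU (0.53 ± 0.05) and the membrane protease gene MMP14 (0.47 ± 0.04) rose.

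Proliferation genes were lower in small steps. DNA replication and nucleotide genes were lower in 31 of 48 and higher in 3 (median -0.19), and mitotic genes lower in 30 of 53 and higher in 1 (median -0.20). Without RSL3+CLA18:2 replicate 3 and RSL3 replicate 4, 20 replication and 24 mitotic genes were lower, so the size of these counts rested partly on those 2 libraries. UHRF1, which maintains DNA methylation at the fork, stood at 119, 117, 113 and 115 against 197, 196, 176 and 173 CPM (-0.68 ± 0.05), and MCM2, of the replicative helicase, at 130.5, 131, 129 and 131 against 177, 169.8, 164 and 179.5 CPM (-0.40 ± 0.04). CCNA2, cyclin A2, stood at 161, 159.8, 172 and 161 against 225, 218, 221 and 238 CPM (-0.46 ± 0.04), and CDC20, an activator of the anaphase-promoting complex, changed by -0.44 ± 0.04. Each of these 4 genes fell by less than 2-fold with no overlap between groups. ORC1, of the origin recognition complex, rose by 0.43 ± 0.06. MKI67, the proliferation marker Ki-67, stood at 356, 344, 301 and 369 against 346, 359, 402 and 486 CPM and was not past the test (-0.21 ± 0.09). It was past the test without RSL3 replicate 1 (adjusted p = 0.035 by edgeR) and with the replicate block (0.013). It also passed without the low-count filter (0.00051), but p-values of that fit did not follow the spread between libraries, as shown for MT-CO1 below. Genes of G1 cyclins and E2F were lower in 11 of 23 and higher in 3 (median -0.20), with SKP2, a ubiquitin ligase subunit for cell cycle inhibitors, at -0.54 ± 0.07, CCND1, cyclin D1, at -0.20 ± 0.04 and the inhibitor CDKN1A at 0.24 ± 0.05. Of 13 tested histone genes 0 were higher and 2 lower (median -0.03), 15.4% called where 13.8% of all tested genes were lower, and 0 or 1 lower without most single libraries.

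Genes of p53 and of apoptosis were called in both directions. Of 30 p53 targets 9 were higher and 4 lower (median 0.0030, or -0.0162 under scaling by library totals), 43.3% called against 30.2% of all tested genes, and 2 lower without RSL3 replicate 4. PLK2, a polo-like kinase, stood at 68.2, 73.2, 72.9 and 63.4 against 182, 176, 185 and 193 CPM (-1.40 ± 0.05), while its relative PLK3 rose by 0.53 ± 0.06 and TP53I3 gave 0.03 ± 0.08. Of 27 BCL2 family and death receptor genes 4 were higher and 5 lower (median 0.05), 33.3% called, near the 30.2% of all tested genes. BOK, a proapoptotic member, stood at 26.4, 30.6, 24.4 and 24.1 against 50.8, 54.8, 46.8 and 46.7 CPM (-0.92 ± 0.09), and BCL2, the founding survival member, changed by -0.59 ± 0.11. The death receptor gene TNFRSF10B rose by 0.18 ± 0.05, a call lost without RSL3+CLA18:2 replicates 3 and 4 together (adjusted p = 0.0501 by edgeR).

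Ribosomal protein genes were higher in 28 of 72 and lower in 0, but by little (median 0.12). RPL11, a subunit of the large ribosomal particle, stood at 927, 895, 936 and 835 against 754, 739, 787 and 775 CPM (0.24 ± 0.04). The count was 18 without RSL3+CLA18:2 replicate 1 or 2 and 52 without replicates 3 and 4, so it depended on which RSL3+CLA18:2 libraries were used. Nuclear-encoded respiratory chain genes were higher in 22 of 55 and lower in 0 (median 0.16), with NDUFA4 at 0.46 ± 0.06. Mitochondrially encoded mRNAs had none called of 13 by edgeR, with 2 at an unadjusted p under 0.05 and a median of -0.995. DESeq2 called 0, and limma voom, fitted to all 28 libraries with group weights, called 8. With the replicate number as a block edgeR called all 13 lower, as it did without the low-count filter. MT-CO1, a subunit of cytochrome oxidase, stood at 487, 581, 3164 and 588 against 2849, 2894, 2851 and 1015 CPM, and the groups overlapped. Even so, its adjusted p by edgeR without the low-count filter was 2.8e-85, so p-values of that fit did not follow the spread between these libraries. Replicate 3 of RSL3+CLA18:2 was the highest of the 8 and replicate 4 of RSL3 was well below the other RSL3 libraries. Without RSL3+CLA18:2 replicate 3 all 13 were called lower, with a median of -2.13, and without RSL3 replicate 4, 2 were. Hypoxia and glycolysis genes were higher in 20 of 39 and lower in 2 (median 0.19). NDRG1, a hypoxia-induced gene, stood at 130.3, 125, 134 and 131 against 59.1, 59.4, 60.4 and 64.9 CPM (1.10 ± 0.05), and the glycolytic enzyme gene PKM rose by 0.29 ± 0.03. The glucose transporter gene SLC2A1 (-0.48 ± 0.06) and the hexokinase gene HK2 (-0.36 ± 0.06) fell. Of 13 long noncoding RNAs of the nucleus 2 were higher and 3 lower (median -0.01), or 5 lower without RSL3+CLA18:2 replicate 4, with SNHG1 at -0.64 ± 0.09 and NORAD, which is largely cytoplasmic, at 0.52 ± 0.05.

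The response to CLA18:2 in the presence of RSL3 was then set against its response in the absence of RSL3, as a difference of log2 fold changes in 16 libraries. It differed in 689 of 15536 tested genes (4.43%), 337 with a higher (2.17%) and 352 with a lower difference (2.27%). A higher difference means that, on the log2 scale, CLA18:2 raised the gene more, or lowered it less, when RSL3 was there. The RSL3+CLA18:2 and RSL3 libraries are the same as above, so these tests are not independent of those.

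FOSB and FOS had the largest higher differences among called genes with a mean of at least 5 CPM over the 16 libraries. FOS stood at 0.631, 0.509, 0.602 and 0.167 CPM in DMSO, 2.44, 2.74, 2.70 and 2.14 CPM in CLA18:2, 4.43, 4.83, 3.25 and 6.07 CPM in RSL3 and 59.7, 60.2, 67.4 and 62.4 CPM with both. Its difference was 1.41 ± 0.34 (adjusted p = 0.018 by edgeR), and the adjusted p was 0.0885, 0.0597 or 0.0977 without DMSO replicate 1, 2 or 3. With limma voom it was 0.054. FOSB stood at 2.63, 2.59, 2.97 and 2.46 CPM in DMSO, 3.15, 3.50, 4.54 and 4.602 CPM in CLA18:2, 7.22, 6.82, 5.97 and 5.20 CPM in RSL3 and 39.1, 34.6, 36.6 and 44.1 CPM with both, a difference of 2.07 ± 0.20 (adjusted p = 1.2e-06 by edgeR). In both genes each agent alone gave a level far below that of the combination. ATF3 also differed upward (0.66 ± 0.11), with means of 16.5 CPM in DMSO and 20.7 CPM in CLA18:2 alone. EGR1 was not past the test (0.41 ± 0.18).

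Stress and NRF2 genes went the other way. Of 33 NRF2 targets 13 had a lower difference and 0 a higher one (median -0.23), as did 12 of 36 integrated stress response genes with 1 higher (median -0.24) and 12 of 33 ER genes with 0 higher (median -0.16). Among all tested genes 2.27% had a lower difference. SLC7A11 stood at 19.4, 18.3, 16.8 and 20.2 CPM in DMSO, 226, 186, 198 and 178 CPM in CLA18:2, 36.4, 33.7, 35.02 and 37.3 CPM in RSL3 and 166, 151, 148 and 181 CPM with both. Its RSL3 libraries lay above its DMSO libraries, and its levels with both agents overlapped those with CLA18:2 alone. Its difference was -1.22 ± 0.11 (adjusted p = 4.9e-07 by edgeR). HMOX1 differed by -1.09 ± 0.12, with 29.8, 26.4, 27.2 and 24.4 CPM in DMSO, 375, 303, 314 and 291 CPM in CLA18:2 alone, and the RSL3 and RSL3+CLA18:2 levels given above. Its level was highest with both agents, and on the log2 scale its rise on adding CLA18:2 was larger from DMSO than from RSL3. In CPM the rise was larger from RSL3, with means of 132.6 to 741.9 CPM against 26.93 to 320.9 CPM from DMSO. HSPA5 differed by -0.61 ± 0.04, with 2663, 2609, 2747 and 2707 CPM in CLA18:2 alone against 1984, 1938, 1945 and 2032 CPM with both. DDIT3 stood at 16.2, 13.4, 18.4 and 17.9 CPM in CLA18:2 alone, against 8.0, 8.14, 9.07 and 5.54 CPM with both and 5.28, 4.96, 5.18 and 4.99 CPM in RSL3 (-1.44 ± 0.20). DDIT4, an mTORC1 inhibitor, stood at 2.84, 3.29, 4.08 and 2.90 CPM in DMSO, 14.2, 14.9, 13.3 and 15.8 CPM in CLA18:2, 10.2, 10.2, 9.06 and 9.81 CPM in RSL3 and 9.84, 8.62, 9.62 and 8.15 CPM with both (-2.26 ± 0.16). Its libraries with CLA18:2 alone lay above all others. That gene was not past the test between RSL3+CLA18:2 and RSL3 (-0.11 ± 0.12). GCNT3 (-2.81 ± 0.40), NMRAL2P (-1.98 ± 0.25), CXCL8 (-1.36 ± 0.21), AKR1C1 (-2.98 ± 0.38), CHAC1 (-1.13 ± 0.20) and HSPA6 (-2.96 ± 0.23) also had lower differences. The sizes for GCNT3, AKR1C1 and NMRAL2P are rough, since their means in DMSO were 0.146, 0.262 and 0.693 CPM. Reads of AKR1C1 may also belong to its paralogs.

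**Figure D4:**
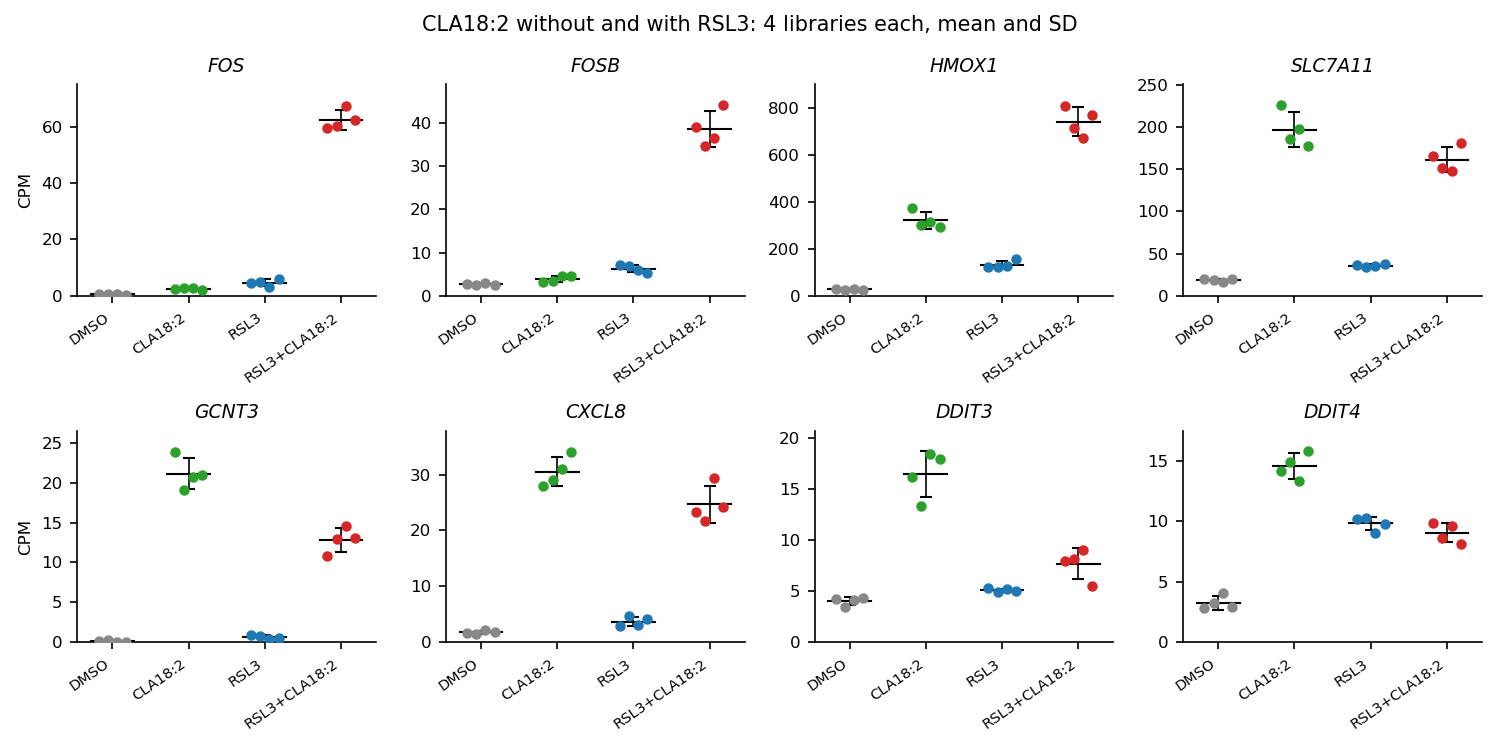
CPM of 8 genes in the 4 libraries each of DMSO (grey), CLA18:2 (green), RSL3 (blue) and RSL3+CLA18:2 (red), with the mean and SD of each group in black. FOS and FOSB are high with both agents and low with either alone, SLC7A11 and CXCL8 are similar with CLA18:2 alone and with both, and DDIT3 and DDIT4 are highest with CLA18:2 alone.

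Proliferation genes had higher differences. Of 48 replication genes 25 were higher and 0 lower (median 0.29), and of 53 mitotic genes 29 and 0 (median 0.29), against 2.17% of all tested genes. CCNA2 had means of 222 CPM in DMSO, 124 CPM in CLA18:2, 226 CPM in RSL3 and 163 CPM with both, a difference of 0.38 ± 0.06 (adjusted p = 4.1e-04 by edgeR). The drop with CLA18:2 was smaller in the presence of RSL3. Of 23 G1 and E2F genes 8 were higher and 2 lower, with E2F2, an E2F factor, at 1.13 ± 0.22, and of 33 actin genes 8 were higher and 0 lower (median 0.10), while THBS1 differed by 0.47 ± 0.07. The proteasome had 0 called differences in 39 genes by edgeR (median 0.0014), with 4 at an unadjusted p under 0.05 and 2 called by DESeq2 and by limma voom, and cholesterol genes 1 higher and 0 lower of 28 (median 0.07). CPT1A gave 0.11 ± 0.12, SCD 0.15 ± 0.06, HMGCS1 0.09 ± 0.06, GCLM -0.11 ± 0.08 and GPX4 0.06 ± 0.11, none past the test. PDXP, TAF10 and CARS1 were among the 6 largest differences each way, but each call was lost without RSL3+CLA18:2 replicate 3, RSL3 replicate 4, CLA18:2 replicate 1, DMSO replicate 1 or DMSO replicate 2, among others. COL10A1, a collagen gene, differed by 0.84 ± 0.18.

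The isomers were compared at the same dose with RSL3 in both groups, as the 1 matched pair of compounds, and they differ in whether the double bonds are conjugated. In some genes RSL3+LA replicates 1 and 2 lay apart from 3 and 4, while in others, such as OSGIN1, they did not. In replicates 1 to 4 THBS1 stood at 2622, 2604, 3408 and 3524 CPM and SLC7A11 at 42.0, 38.2, 31.3 and 31.1 CPM. The part of this unevenness in the results was not tested. RSL3+CLA18:2 differed from RSL3+LA in 3327 of 14779 tested genes (22.5%), 1852 higher (12.5%) and 1475 lower (9.98%). Under scaling by library totals in place of the trimmed mean, 1400 were higher and 2016 lower, so the balance of directions in this comparison depended on the scaling. Stress genes were higher with the conjugated isomer: 28 of 33 NRF2 targets with 0 lower (median 0.82), 27 of 33 ER genes with 0 lower (median 0.31), 29 of 39 proteasome genes with 0 lower (median 0.53), and 14 of 22 heat shock genes with 0 lower (median 0.32). HMOX1 stood at 114, 112, 81.3 and 79.2 CPM in RSL3+LA, against 811, 714, 672 and 771 CPM in RSL3+CLA18:2 (2.94 ± 0.11, adjusted p = 7.5e-12 by edgeR). OSGIN1 stood at 12.4, 11.01, 12.1 and 10.99 CPM (2.45 ± 0.09), CXCL8 at 3.56, 3.95, 3.38 and 3.55 CPM (2.77 ± 0.13), FOS at 5.82, 5.23, 2.97 and 3.85 CPM (3.80 ± 0.14) and EGR1 at 4.19, 3.16, 2.87 and 3.24 CPM (3.03 ± 0.13) with LA. In OSGIN1, CXCL8, FOS and EGR1 the RSL3+LA levels overlapped those of RSL3 alone, while in HMOX1 they lay below them. Every RSL3+CLA18:2 library lay above every RSL3+LA library in all 5. GCNT3 (4.11 ± 0.24), CXCL3 (3.44 ± 0.21) and AKR1B10 (3.05 ± 0.30) were the other largest higher genes.

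Lipid lists had smaller shares of members called between the isomers than the stress lists above, but larger shares than the 22.5% of all tested genes. CPT1A stood at 50.5, 44.4, 40.9 and 41.5 CPM in RSL3+LA, against 7.70, 10.1, 9.27 and 8.84 CPM in RSL3 and 54.5, 57.2, 56.9 and 56.9 CPM in RSL3+CLA18:2, a difference between isomers of 0.34 ± 0.07. ANGPTL4 gave 0.57 ± 0.31 between isomers, with a 95% interval of -0.08 to 1.22. Of 38 PPAR and oxidation genes 11 were higher and 2 lower with CLA18:2 (median 0.11), 34.2% called. Cholesterol genes were lower in 13 of 28 and higher in 2 (median -0.22), 53.6% called, where 12.5% of all tested genes were higher and 9.98% lower. SCD stood at 235, 241, 258 and 254 CPM in RSL3+LA, between the RSL3+CLA18:2 and RSL3 libraries (-0.74 ± 0.05), and HMGCS1 at 101, 104, 104 and 117 CPM (-0.39 ± 0.06) likewise. TGFB2 stood at 21.2, 23.9, 32.3 and 29.8 CPM in RSL3+LA (-1.44 ± 0.16) and COL1A1 at 253, 233, 304 and 290.2 CPM (-1.08 ± 0.07). The remaining largest decreases were LFNG, a glycosyltransferase of Notch (-1.55 ± 0.20), TERT, the telomerase subunit (-1.37 ± 0.19), MTCO1P12, a nuclear copy of a mitochondrial gene (-1.41 ± 0.28), ENSG00000264112 (-1.32 ± 0.26) and U2AF1, a splicing factor with a near-identical copy (-1.31 ± 0.30). With limma voom the MTCO1P12 and U2AF1 calls were lost (adjusted p = 0.089 and 0.0695). Reads of MTCO1P12 and of U2AF1 may belong to their copies, and 10 of 13 mitochondrially encoded mRNAs were lower (median -1.34) beside RSL3+LA libraries that held 1.46% to 1.93% of counts in such mRNAs; the part of the libraries in this difference was not tested. Several fixed genes were not past the test between isomers: GPX4 (95% interval -0.25 to 0.12), ACSL3 (-0.06 to 0.15), CCND1 (-0.07 to 0.10), TFRC (-0.03 to 0.17), NCOA4 (-0.07 to 0.16) and MKI67 (-0.14 to 0.14). These intervals bound the size of a difference and do not show that the isomers act alike.

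**Figure D5:**
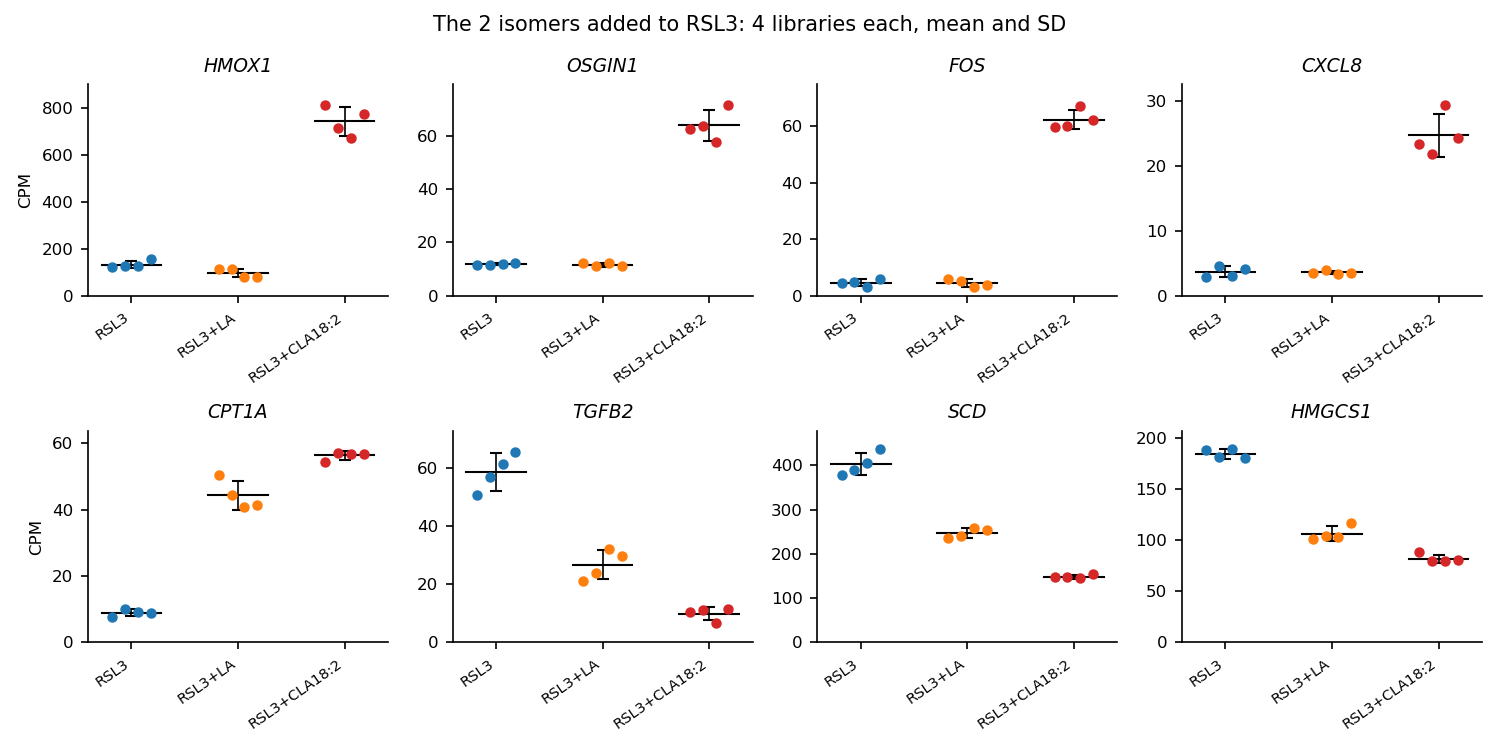
CPM of 8 genes in the 4 libraries each of RSL3 (blue), RSL3+LA (orange) and RSL3+CLA18:2 (red), with the mean and SD of each group in black and each axis starting at 0. HMOX1, OSGIN1, FOS and CXCL8 are high only in the red group of the 3 shown, CPT1A is high with either acid, and TGFB2, SCD and HMGCS1 lie between the other groups in RSL3+LA.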

How the data were processed

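RNA of HT-1080 cultures was sequenced as 150-base read pairs on an Illumina NovaSeq platform, per the labels' protocols. The deposited table holds whole-number counts per gene for 28 libraries, 7 groups of 4. The authors' notes name HISAT, SAMtools, featureCounts, DESeq2 and build hg38, per the submitters' processing notes. Versions, gene annotation and strand setting are not given in the sources used here, so overlapping and antisense genes cannot be told apart, and paralogs may share reads.

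Counts were tested as deposited with edgeR 4.0.16 in R 4.3.3: filterByExpr, TMM scaling, glmQLFit and glmQLFTest, with Benjamini-Hochberg adjustment over all tested genes and a threshold of 0.05. The comparison with RSL3 and that with RSL3+LA used 8 libraries each. The difference between responses was an interaction term over 16. Every adjusted p in the text is from these fits unless another tool is named. The SE of a fold change was derived from its F statistic (absolute log2 value over the root of F). CPM are scaled by TMM over all 28 libraries. P-values of the main fits measure the spread between these libraries. The 8 held 16533930 to 22468321 counts, so genes under 1 CPM had few counts and wide intervals. Alternatives were RLE scaling, library totals, no filter, DESeq2 1.42.0, a replicate block, 1 edgeR fit of all 28 libraries and leaving out libraries. A further alternative, limma 3.58.1 voom, was fitted to all 28 libraries with group weights, so it differed from the main fits in more than the tool. 2 of the alternatives, leaving out a pair of libraries that stood apart, were chosen after seeing the data.

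The members and the 45 gene lists were chosen with earlier results of these data known. Genes are named if among 50 fixed genes, the 12 largest called changes each way of at least 5 CPM without overlap, the 4 of smallest p in a list, called against a list's direction, or the 6 largest each way in the other comparisons. This gave 277 genes, 265 with a GENCODE 29 position (GRCh38). Some genes that the rule names are not reported here. Other symbols are named for a background or as markers. Promoter windows are RefSeq's, of GRCh38.p14, matched by symbol.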

Additional observations from a re-analysis of the deposited data

Results flagged for a closer look

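In groups of 4 libraries, the gap of the highest or lowest library to its nearest neighbour was compared with the group's range, and 15 of 134 groups held a library that stood far from the other 3. Chance gives about 1 in 20 independent groups, but these groups are genes and measures of the same libraries, so 15 cannot be set against that rate. The rule is relative to a group's range, so it also flags small gaps, as for FTL at 1569 CPM beside 1593, 1594 and 1598 CPM. RSL3 replicate 4 was the library concerned for the mitochondrially encoded share (0.548%), the share of nuclear-retained noncoding RNAs (0.113%), HMOX1 (155.7 CPM), TXNRD1 (508 CPM), CHAC1 (5.75 CPM), CCND1 (1380.0 CPM) and NAP1L2 (2.76 CPM). RSL3+CLA18:2 replicate 3 was concerned for the mitochondrially encoded share (1.68%), FTL (1569 CPM) and CXCL3 (18.8 CPM). The others were RSL3+CLA18:2 replicate 1 for CPT1A (54.5 CPM) and HMGCS1 (88.1 CPM), replicate 2 for AKR1B10 (6.68 CPM), replicate 4 for TFRC (1236 CPM), and RSL3 replicate 3 for CXCL3 (2.09 CPM).

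The response to CLA18:2 differed with and without RSL3, by the interaction term of edgeR's quasi-likelihood fit, in 28 genes named for that comparison. Among all tested genes it differed in 689 of 15536 (4.43%). Some of the 28 were named because they were among the largest called differences in this same test. The count of 28 therefore cannot be set against that share. The difference, with RSL3 minus without it on the log2 scale, was higher for FOSB (2.07), FOS (1.41), E2F2 (1.13), PDXP (0.98), TAF10 (0.89), COL10A1 (0.84), ATF3 (0.66) and THBS1 (0.47). It was lower for AKR1C1 (-2.98), HSPA6 (-2.96), GCNT3 (-2.81), DDIT4 (-2.26), NMRAL2P (-1.98), DDIT3 (-1.44), CXCL8 (-1.36), CARS1 (-1.30), SLC7A11 (-1.22), CHAC1 (-1.13) and HMOX1 (-1.09). Smaller lower differences were seen for SQSTM1 (-0.87), OSGIN1 (-0.82), FTL (-0.65), HSPA5 (-0.61), TRIB3 (-0.51), TXNRD1 (-0.43), CTSD (-0.42), FTH1 (-0.39) and CDKN1A (-0.24). The CDKN1A call was lost without RSL3 replicate 1 or 2 or DMSO replicate 1. Calls of FOS, PDXP, TAF10 and CARS1 were also lost under several alternatives, as described above. The sizes for AKR1C1, GCNT3 and NMRAL2P are rough, for the low DMSO levels given above.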

How the results depend on the processing

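The count of genes called between RSL3+CLA18:2 and RSL3 was 4421 and ran from 3571 to 4484 when 1 library was left out, and from 4277 to 5129 under the other alternatives. Of 249 named genes called there, 213 kept their call under all 18 alternatives, and none of the named genes reversed while called. For the difference between responses, DESeq2 called 1062 genes where edgeR called 689, of which 557 against 352 were lower. Other alternatives gave 580 to 965, and leaving out 1 library gave 464 to 878. Between the isomers the count was 3327, 2537 to 3243 with 1 library left out, and 3327 to 4254 under the other alternatives. The cause of these shifts was not tested. With the replicate number as a block, the 3 counts were 5129, 640 and 3442, and 4359 of the 4421 calls were shared. Deviations of same-numbered libraries correlated at 0.051, 0.011, 0.10 and 0.14, and 2 of 4 libraries correlated best with their own number, so the numbers were not taken as pairs. That choice depended on expression: over the 4353 genes above 50 CPM the correlations were 0.213, 0.105, 0.453 and 0.576, all over 0.1. Among named genes the block lost the calls of REL and ADAM12 (adjusted p = 0.053 and 0.057 by edgeR) against RSL3 and added 8, MKI67 among them (adjusted p = 0.013 by edgeR), and it called all 13 mitochondrially encoded mRNAs lower. It also added NQO1 to the difference between responses (adjusted p = 0.036 by edgeR) and ACSL4 to the isomer comparison (adjusted p = 0.027 by edgeR). Precision was limited by depth below 1 CPM, where 6.26% of genes were called.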
